A study of Mus musculus with 5 samples.

Results

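The 8 genes Bdnf, Ntf3, Gdnf, Cntf, Ntrk2, Ntrk3, Ngfr and Vgf encode neurotrophic factors, their receptors and a peptide precursor that neurotrophins induce. They were picked by name, and each had a single row among the 33635 gene identifiers of the count table. The retinas came from wild-type male mice of the inbred strain C57BL6/J, each wearing a diffuser goggle over the right eye from P28 for 2 weeks, and were collected at P42. The goggle blurs the image and induces form-deprivation myopia (FDM). The libraries were 2 from goggled (FDM) eyes and 3 from uncovered left eyes of the goggled mice (Control), so that the controls were not eyes of untreated mice and goggle and side of the body cannot be told apart. The labels give refractive errors at P42 of 0.976 and 0.2745 diopters (D) for the FDM eyes, and 2.4455, 3.1505 and 2.465 D for Control 1, 2 and 3. The second FDM library is number 2 in the sample labels but number 3 in the count table and in the study, and is called FDM 3 here. By those numbers FDM 1 and Control 1 are the eyes of the same mouse, FDM 3 and Control 3 those of another, and Control 2 has no partner.

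Neurotrophins are secreted proteins that support the survival of neurons and adjust their synapses. BDNF acts through the receptor tyrosine kinase TrkB, encoded by Ntrk2, and neurotrophin 3, encoded by Ntf3, through TrkC, encoded by Ntrk3. Ngfr encodes the receptor that binds all neurotrophins with low affinity, and GDNF and CNTF belong to separate families that signal through Ret and through gp130. In the retina, BDNF is best known for its support of ganglion cells, and its transcription follows neuronal activity through factors such as CREB that bind cAMP response elements (CRE) in its alternative promoters. Vgf encodes a precursor of secreted neuropeptides and is itself a target of neurotrophins and of CREB.

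The upstream window of the single Bdnf start site with a CRE core is shown because Bdnf was lower in the FDM eye of both eye pairs described here. RefSeq lists 7 Bdnf start sites on chromosome 2 of GRCm38.p6, of which this is the third along the plus strand. The window, chr2:109692186-109692435, holds the 250 bases before that start, does not overlap an annotated Bdnf exon, and carries the CRE core in capitals, with its first base at position -35 from the start.

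Bdnf, start site 3: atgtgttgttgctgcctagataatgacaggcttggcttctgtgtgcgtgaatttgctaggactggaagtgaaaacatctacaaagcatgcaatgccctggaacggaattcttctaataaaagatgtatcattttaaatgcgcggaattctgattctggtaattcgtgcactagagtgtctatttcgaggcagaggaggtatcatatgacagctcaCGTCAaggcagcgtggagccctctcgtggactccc

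The core CGTCA, read on both strands, was present in 17.8% of the 32851 RefSeq mouse windows of this length. The full element TGACGTCA, which contains the core, was present in 1.55% of them and the E-box CACGTG in 6.02%. Among the other members, the core was found in 1 of 2 Gdnf windows and the E-box in 1 of 2 Ntf3 windows. The windows of Ntrk2, Ngfr and Cntf held none of these letters. Vgf and Ntrk3 had no entry in the table of start sites. The counts are sums over all transcripts of a gene and do not show which start site was used.

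Salmon estimates summed to between 40599047 and 56534931 counts per library. Levels are given as CPM, counts scaled by the library total and its TMM factor to parts per 1000000. At these totals 3 counts, taken as the floor of detection, corresponded to 0.0526 to 0.0751 CPM. Such limits, and the counting errors given for single libraries, leave out the variation between mice. Markers of rods, cones, bipolar, amacrine and ganglion cells and Müller glia were detected in every library, with rod markers summing to between 52656 and 65998 CPM. RNA of neighbouring tissues varied between libraries. The 10 lens markers found, of 11 listed, summed to 2146 CPM in FDM 3 against 2.95 in FDM 1 and 2.96 to 23.4 in the controls. The 12 markers of the retinal pigment epithelium (RPE) summed to 80.4 and 75.4 CPM in FDM 1 and FDM 3, and to 84.1, 288 and 338 CPM in Control 1, 2 and 3. The 6 skeletal muscle markers summed to 59.5 CPM in Control 3 and to between 9.24 and 10.7 in the other libraries, and 2 of them, Tnnt3 and Myh4, were at 0 in at least 1 library.

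To ask whether form deprivation was accompanied by a different level of these genes, FDM and control libraries were compared with edgeR's quasi-likelihood test, and a gene was called at an unadjusted p under 0.05, the threshold of the study. All 8 members passed the count filter of more than 10 counts in at least 2 libraries. A single member, Vgf, was called, lower in FDM eyes. Bdnf was lower by a larger fold but with a wider error and its p missed the threshold. The other 6 were not called, and their log2 fold changes ran from -0.65 for Ntf3 to 0.0085 for Cntf. Among all 17432 genes tested, 281 were called, which is 1.61%, and 1.16% were called lower, and a single call among 8 genes is too few to be read as a result about the members as a set. After Benjamini-Hochberg adjustment this edgeR fit, without a term for the mouse, called 0 of the 17432 genes. DESeq2 called 3, with 172 at the unadjusted threshold. For no member were the FDM libraries separated from all controls, an arrangement that 10.6% of the genes tested showed, 6.67% with the FDM libraries below every control. The members had a median log2 fold change of -0.16, against -0.013 over all genes tested.

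**Figure D1:**
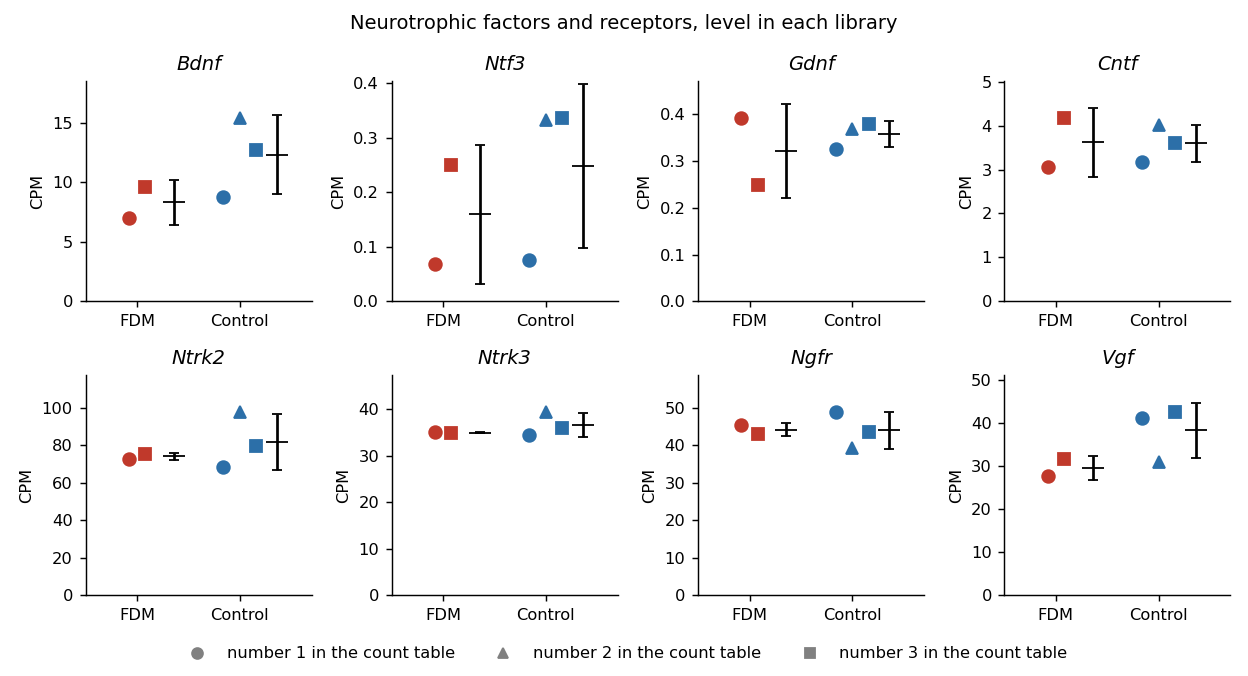
Level of the 8 genes in CPM (vertical axis, from 0) in each FDM (red) and control (blue) library, with the marker shape giving the number in the count table and the black bar the group mean ± SD. Vgf was lower in the FDM eyes of mice 1 and 3 than in their control eyes, while Control 2 lay near the FDM libraries, and Bdnf was highest in Control 2 at 15.4 CPM.

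Among the ligands, Bdnf (ENSMUSG00000048482, chromosome 2 of GRCm38, 109674700 to 109727007) stood at 6.97 and 9.63 CPM in FDM 1 and FDM 3, and at 8.79, 15.4 and 12.7 CPM in Control 1, 2 and 3. The groups overlapped because Control 1 lay between the FDM libraries, while Control 2 and Control 3 lay above both. The group levels were 8.30 ± 1.88 CPM in FDM (SD, n = 2) and 12.3 ± 3.32 CPM in control eyes (SD, n = 3). FDM eyes thus had 0.673 times the control level, a log2 fold change of -0.57, where the SE (standard error) was 0.25 (95% interval -1.15 to 0.0093, unadjusted p = 0.0529, adjusted p = 1.0 from edgeR). The p of Bdnf fell on the other side of the threshold in DESeq2, at an unadjusted 0.0238 with a log2 fold change of -0.56. With the mouse as a block, the log2 fold change was -0.37 (unadjusted p = 0.00259, adjusted p = 0.332 from edgeR), while 7.23% of all genes tested were called in that fit, which leaves 1 residual degree of freedom. Bdnf was called without FDM 3, at -0.82 (unadjusted p = 0.0260 from edgeR), and without Control 1, at -0.76 (unadjusted p = 0.00384 from edgeR). Leaving out FDM 1 or Control 2 reduced it to -0.36 and -0.37. In bulk retina, fewer cells that make a transcript and less of it per cell cannot be told apart. The libraries with the most Bdnf, Control 2 and Control 3, were also those with the highest sums of RPE markers. Of these markers 6 of 12 were called in the fit without a block, where 1.61% of all genes tested were called. In the first mouse the sums of RPE markers were 80.4 CPM in FDM 1 and 84.1 in Control 1, and the log2 difference of Bdnf was -0.33. In the pair of FDM 3 and Control 3 the sums were 75.4 and 338 CPM, and the log2 difference of Bdnf was -0.40. The ganglion cell markers summed to 1101 and 1243 CPM in FDM 1 and FDM 3 and to 1075, 1221 and 1314 CPM in Control 1, 2 and 3, and 0 of the 10 were called. The part of RPE or ganglion cell RNA in the Bdnf values was not tested. An antisense gene, Gm45346, overlaps Bdnf exons, and since the library kit does not mark strand, reads of the overlapping stretch could be shared between these genes.

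Ntf3, the gene of neurotrophin 3 (ENSMUSG00000049107, chromosome 6, 126101412 to 126166910), was close to the floor of detection. The FDM libraries 1 and 3 held 3 and 12 counts, and Control 1, 2 and 3 held 3, 19 and 16. Both eyes of the first mouse were thus at the floor, and the low libraries were 1 of each group. Its log2 fold change of -0.65, with an SE of 0.72 (95% interval -2.34 to 1.04, unadjusted p = 0.394 from edgeR), leaves room for a reduction or a rise of 2-fold. The value without FDM 1 was -0.042 and without FDM 3 it was -1.85, so a single library set its size.

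Gdnf (ENSMUSG00000022144, chromosome 15, 7810846 to 7837575) encodes the ligand of the Ret and Gfra1 receptor complex. With 17 and 12 counts in FDM 1 and FDM 3, and 13, 21 and 18 in Control 1, 2 and 3, it was present but rare in every library. The log2 fold change was -0.17, with an SE of 0.34 (95% interval -0.97 to 0.63, unadjusted p = 0.632 from edgeR), and it turned to 0.13 without FDM 3 and to -0.52 without FDM 1. The mean level was 0.321 ± 0.101 CPM in FDM (SD, n = 2) and 0.358 ± 0.0283 CPM in control eyes (SD, n = 3).

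Cntf (ENSMUSG00000079415, chromosome 19, 12763660 to 12765632), a cytokine that protects photoreceptors and other neurons after injury, stood at 3.07 and 4.18 CPM in FDM 1 and FDM 3, and at 3.18, 4.02 and 3.60 CPM in Control 1, 2 and 3. Here again the libraries of the first mouse were the lowest of their groups, and the FDM libraries spanned the controls. The log2 fold change was 0.0085, with an SE of 0.19 (95% interval -0.43 to 0.45, unadjusted p = 0.965 from edgeR). Cntf exons overlap those of Zfp91 on the same strand, so reads could be shared between these genes.

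Of the receptor genes, Ntrk2 (ENSMUSG00000055254, chromosome 13, 58806569 to 59133970), which encodes TrkB, had levels of 72.8 and 75.3 CPM in FDM 1 and FDM 3, against 68.3, 97.9 and 79.3 CPM in Control 1, 2 and 3. Control 2 was the high library, and Control 1 lay below both FDM libraries. The log2 fold change was -0.14, with an SE of 0.15 (95% interval -0.49 to 0.20, unadjusted p = 0.359 from edgeR), and without Control 2 it was 0.014. The annotation lists 7 coding Ntrk2 transcripts, and the gene count does not separate the full kinase receptor from the truncated forms.

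For Ntrk3 (ENSMUSG00000059146, chromosome 7, 78175959 to 78738012), the gene of TrkC, the libraries ran from 34.4 CPM in Control 1 to 39.5 in Control 2, with FDM 1 at 35.0, FDM 3 at 34.9 and Control 3 at 35.99. This was the narrowest spread among the members, the highest library standing at 1.15 times the lowest. The log2 fold change was -0.068, with an SE of 0.088 (95% interval -0.28 to 0.14, unadjusted p = 0.461 from edgeR).

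Ngfr (ENSMUSG00000000120, chromosome 11, 95568818 to 95587735) had levels of 45.5 and 43.0 CPM in FDM 1 and FDM 3, and of 49.1, 39.4 and 43.7 CPM in Control 1, 2 and 3. The FDM libraries lay inside the range of the controls. Its log2 fold change was 0.0080, with an SE of 0.11 (95% interval -0.25 to 0.26, unadjusted p = 0.943 from edgeR), and its sign changed with the normalization.

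Vgf (ENSMUSG00000037428, chromosome 5, 137026392 to 137033351) was the member called. Its levels were 27.6 and 31.5 CPM in FDM 1 and FDM 3, and 41.2, 31.0 and 42.6 CPM in Control 1, 2 and 3. Control 2 lay between the FDM libraries, and the other controls were well above them. The means were 29.6 ± 2.76 CPM in FDM (SD, n = 2) and 38.2 ± 6.34 CPM in control eyes (SD, n = 3), a ratio of 0.775 and a log2 fold change of -0.37, with an SE of 0.15 (95% interval -0.72 to -0.020, unadjusted p = 0.0409, adjusted p = 1.0 from edgeR). DESeq2 gave -0.36 (unadjusted p = 0.0252, adjusted p = 1.0). The call was lost when FDM 1 (-0.28), FDM 3 (-0.47), Control 1 (-0.31) or Control 3 (-0.28) was left out, and the value was -0.49 without Control 2 (unadjusted p = 6.98e-04 from edgeR). With the mouse as a block, Vgf came to -0.50 on the log2 scale, with an SE of 0.063 (adjusted p = 0.0118 from edgeR over all genes tested). That fit leaves 1 residual degree of freedom, and 54 of the 17432 genes tested passed after adjustment in it. The block by the numbers of the sample labels, which sets FDM 3 against Control 2, gave -0.27 with an unadjusted p of 0.0569 from edgeR. That fit also leaves 1 residual degree of freedom, and 128 of the genes tested passed after adjustment in it. The Vgf result thus depends on which control eye is taken as the partner. Over the 15 alternatives tried, the adjusted p of Vgf ran from 0.0118 to 1.0.

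**Figure D2:**
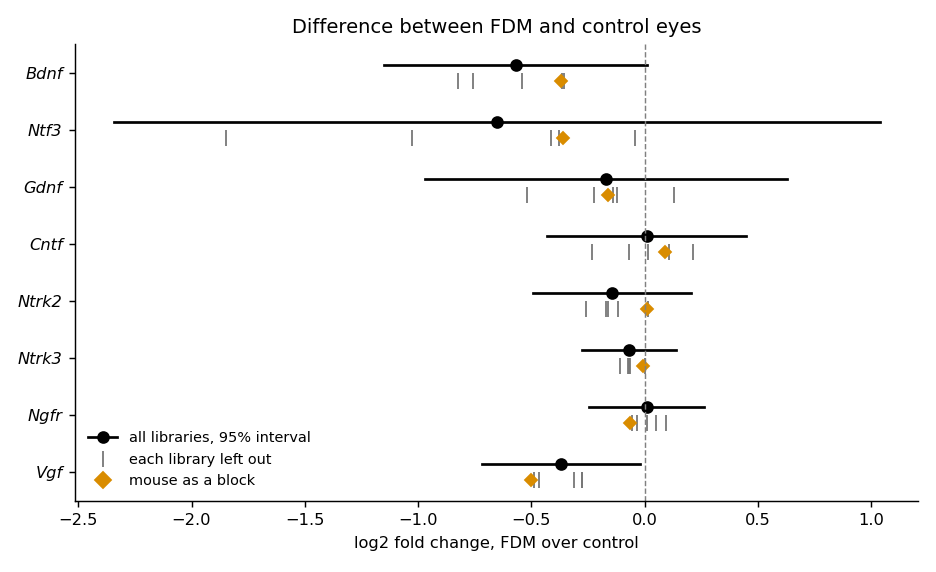
Log2 fold change of FDM over control eyes (horizontal axis) for each gene, as the edgeR estimate with its 95% interval (black), the estimates with each library left out (grey ticks) and the estimate with the mouse as a block (orange). Only the Vgf interval, -0.72 to -0.020, excludes 0, and the Bdnf interval ends at 0.0093.

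Within the eye pairs by the count-table numbers, Vgf and Bdnf were lower on the goggled side in both mice. By the numbers of the sample labels, FDM 3 is set against Control 2 instead, and its log2 difference was then 0.027 for Vgf, so that the direction turned, and -0.68 for Bdnf. For Vgf the log2 difference of the FDM eye from its control eye was -0.57 in the first mouse and -0.43 in the third, with counting errors of 0.055 and 0.049. For Bdnf it was -0.33 and -0.40, with counting errors of 0.11 and 0.089. These differences are several times what counting alone would give, but they come from 2 mice and carry no test of their own. Ntrk2 and Ntrk3 went in opposite directions in the pairs, Ntrk2 at 0.092 and -0.074 and Ntrk3 at 0.027 and -0.046. Ngfr was at -0.11 and -0.022. For Cntf the differences were -0.051 and 0.21, and for Gdnf 0.24 and -0.53, with counting errors for Gdnf of 0.53 and 0.54. In all, 4 of the 8 members were lower in the FDM eye of both pairs, the fourth being Ntf3 with 3 counts in each eye of the first mouse, against 30.3% of all genes tested. The refractive error of the FDM eye minus that of the control eye was -1.4695 D in the first pair and -2.1905 D in the third. For the second FDM eye against Control 2, the pairing of the sample labels, it was -2.876 D. The mean and SD that the study gives for this difference over all its mice can be reached with the count-table pairs. With the pairs of the sample labels they cannot.

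**Figure D3:**
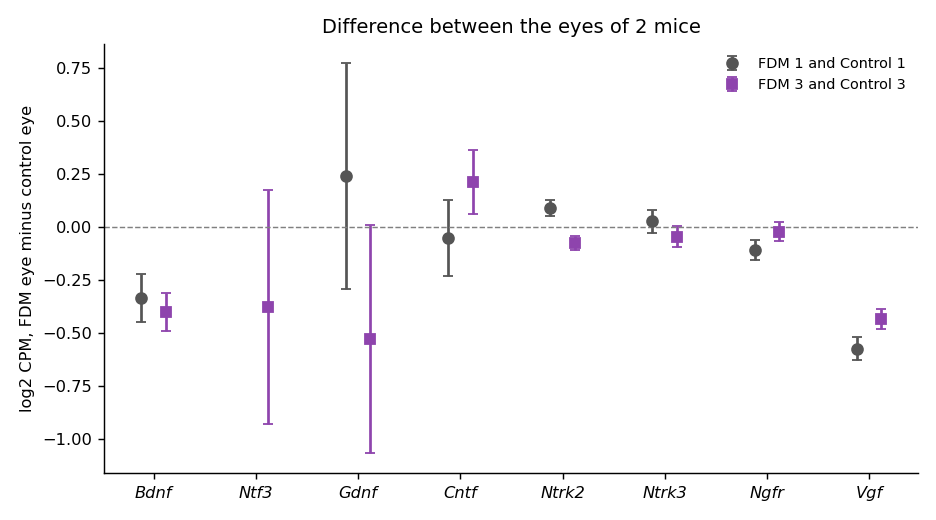
Difference in log2 CPM between the FDM and the control eye (vertical axis) for each gene, paired by the count-table numbers as FDM 1 with Control 1 (grey) and FDM 3 with Control 3 (purple), with bars for the counting error and Ntf3 left out of the first pair, where each eye had 3 counts. Vgf at -0.57 and -0.43 and Bdnf at -0.33 and -0.40 lie below 0 in both pairs, while FDM 3 against Control 2, which is not drawn, gave 0.027 and -0.68.

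To compare levels between genes, CPM was divided by the length of all annotated exons. On this scale of CPM per kb, Ngfr and Vgf were the most abundant, with mean levels of 12.8 and 11.7. Ntrk2 followed at 4.08, Cntf at 3.36, Bdnf at 1.72 and Ntrk3 at 1.19, and Ntf3 and Gdnf were rare at 0.124 and 0.0933. Neighbours in this order were often not separated by their spread over libraries. Ngfr ran from 11.4 to 14.2 and Vgf from 9.30 to 14.3, Ntrk2 from 3.54 to 5.07 and Cntf from 2.86 to 3.89, Bdnf from 1.12 to 2.48 and Ntrk3 from 1.14 to 1.31, and Ntf3 from 0.0404 to 0.197 and Gdnf from 0.0679 to 0.107. The exons of Ntrk2 and Ntrk3 add up to 19292 and 30170 bases over several isoforms, which lowers their levels per kb. With the longest coding transcript as the length, the order was unchanged, with Ntrk2 at 8.999, Bdnf at 2.51 and Ntrk3 at 1.83.

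The genes whose profile over the 5 libraries was nearest to that of Bdnf were Ptk2b, Col9a3, Col18a1, Rarres2 and Mecom. Likeness is the root mean square difference of centred log2 CPM over the 5 libraries, and these genes lay between 0.046 and 0.096 from Bdnf, while the median over all genes tested was 0.42. Like Bdnf, Col18a1 stood at 25.8 and 32.7 CPM in FDM 1 and FDM 3, at 30.6 in Control 1, and at 54.3 and 49.8 in Control 2 and Control 3. Among the members, Ntrk2 was nearest to Bdnf, at 0.27. For Vgf the nearest genes were Dnaaf11, Ucp1, G0s2, Or2y10 and Hs3st2, between 0.036 and 0.066, where the median over all genes tested was 0.27. Ngfr was the nearest member to Vgf, at 0.22, and Bdnf lay at 0.41. With 5 libraries many genes share any given profile.

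**Figure D4:**
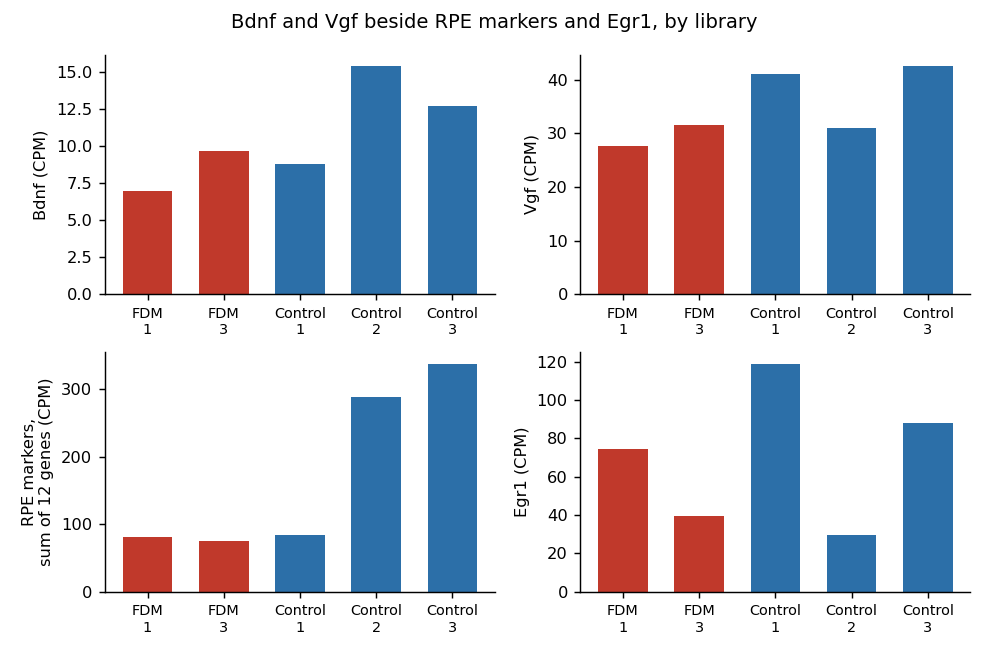
Bars of CPM in each library (vertical axes, from 0) for Bdnf above the sum of 12 RPE markers, and for Vgf above Egr1. FDM libraries are red and controls blue. Bdnf and the RPE markers were highest in Control 2 and Control 3, while Vgf and Egr1 were highest in Control 1 and Control 3. Control 2 was the lowest library for Egr1 but lay between the FDM libraries for Vgf. Vgf was lower in FDM 1 (27.6) than in FDM 3 (31.5), and Egr1 was higher (74.3 and 39.8). Egr1 was chosen after its values were seen, and Control 2 was the highest library for 4 of the 17 activity-induced genes.

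Around these members, 126 further genes of the same pathways were followed in 8 lists. Of the 121 that could be tested, 2 were called, which is 1.65%, close to the 1.61% of all genes tested, and both were lower in FDM eyes. In the other ligands, receptors and coreceptors of the neurotrophin system 0 of 14 tested were called, with a median log2 fold change of -0.012. Its most abundant gene per kb was Maged1, an adaptor of the low-affinity receptor, at a log2 fold change of -0.057. Sort1, the sorting receptor for proneurotrophins, was at 0.0086. Among the proteases and inhibitors that process neurotrophins and granins, 0 of 10 were called, and the most abundant, Cpe (carboxypeptidase E), was at -0.049.

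In the GDNF family 0 of 10 genes tested were called. Ret, the signalling subunit, had a log2 fold change of 0.026 and Gfra1, which binds GDNF, of -0.019, with 95% intervals of -0.17 to 0.22 and -0.23 to 0.19. Ncam1, an alternative GDNF receptor and the most abundant of the list per kb, was at 0.046. In the CNTF and gp130 cytokine system 0 of 15 were called, and Cntfr, the CNTF-binding subunit, was at 0.017 (95% interval -0.24 to 0.27). In the cascade from Trk receptors to ERK, Akt and CREB 0 of 38 were called, with a median of -0.024, and Mapk3, which encodes ERK1, was at 0.00024. Neither did a gene pass among the 6 granins and granule proteins, to which Vgf is related, or the 11 other trophic factors. The most abundant granin, Scg2, was lower in both FDM libraries than in every control, at 361 and 393 CPM against 399, 443 and 436. That arrangement held for 2 of the 6 genes of its list and for 6.67% of all genes tested. The log2 fold change of Scg2 was -0.17 (unadjusted p = 0.0923 from edgeR). Among the trophic factors Vegfa, the most abundant per kb, was at 0.055.

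The genes called were Arc and Egr3, from the list of 17 tested genes that neuronal activity induces, as it does Bdnf and Vgf. Arc, a synaptic protein whose mRNA follows activity, stood at 1.52 and 1.56 CPM in FDM 1 and FDM 3 and at 2.00, 2.11 and 2.84 in the controls, with a log2 fold change of -0.59, with an SE of 0.21 (unadjusted p = 0.0261, adjusted p = 1.0 from edgeR). Egr3, an immediate early transcription factor, was rarer, with 14 and 15 counts against 30, 66 and 23, and a log2 fold change of -1.34, with an SE of 0.42 (unadjusted p = 0.0151, adjusted p = 1.0 from edgeR). In either case all control libraries lay above the FDM libraries, as for 5 of the 17 genes of the list and 6.67% of all genes tested. The list had a median log2 fold change of -0.27, against -0.013 over all genes tested, and 16 of the 17 values were below 0. These values share the same libraries. The share of all genes tested was not counted for this sign, or for the ranks of Control 2 given below. Btg2, an antiproliferative immediate early gene and the most abundant of the list per kb, was at -0.087. In the fit blocked by mouse, 11 of the 17 were called, all lower, where 7.23% of all genes tested were called. That count rests on the pairing of FDM 3 with Control 3. With the block by the numbers of the sample labels, 2 of the 17 were called, Egr3 and Nr4a3, both lower, where 2.52% of all genes tested were called, and 7 of the 11 had a higher level in FDM 3 than in Control 2. Outside the activity-induced list, 7 of 104 pathway genes were called in the fit blocked by mouse, or 6.73%, near the share of all genes. Control 2 was the lowest library for 8 of the 17 activity-induced genes and the highest for 4, which were Egr3, Nr4a3, Homer1 and Crem. Egr1, named after its values were seen, was among the 8. It stood at 74.3 and 39.8 CPM in FDM 1 and FDM 3 and at 119, 29.5 and 87.9 CPM in Control 1, 2 and 3, so that Control 2 was the lowest library, as it was for Fos at 28.7 CPM and Junb at 15.998. Without the block Egr1 had a log2 fold change of -0.47 (unadjusted p = 0.407 from edgeR), with the mouse as a block -0.91 (adjusted p = 0.00570), and with the block by the sample labels -0.13 (adjusted p = 1.0). Control 2 was low for Vgf too, at 31.0 CPM, but high for Bdnf.

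**Figure D5:**
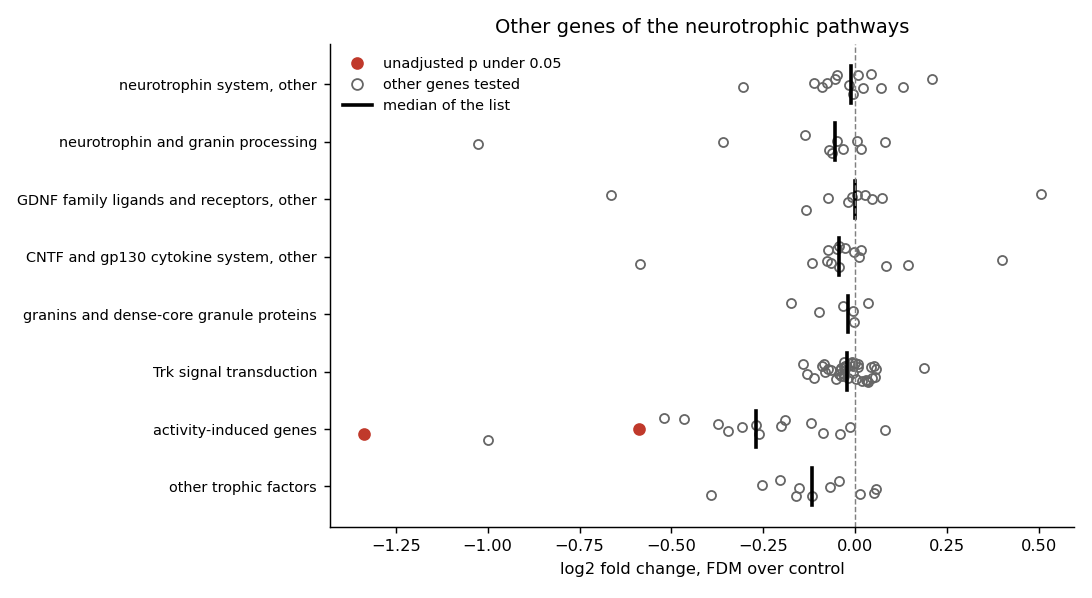
Log2 fold change of FDM over control eyes (horizontal axis) for every tested gene of the 8 pathway lists, with genes of an unadjusted p under 0.05 in red and the median of each list as a black line. The medians lie near 0 except for the activity-induced genes at -0.27 and the other trophic factors at -0.12.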

How the data were processed

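The authors trimmed the reads with Trimmomatic 0.39, quantified transcripts with Salmon 1.10.1 (versions from the submitters' processing notes, which name GRCm38), summed them to genes and deposited whole-number counts. They also deposited a normalized signal from DESeq2, used here only in alternatives. The authors left out 1 FDM library for its read duplication. The 17432 genes that exceeded 10 counts in 2 or more libraries entered edgeR 4.0.16 (R 4.3.3) with TMM factors, no covariate, and Benjamini-Hochberg adjustment over all genes tested. Standard errors are the log2 fold change over the square root of F. Log2 CPM used a prior count of 2. Alternatives used DESeq2 1.42.0, limma 3.58.1 and other factors, filters, blocks and libraries. The scripts were tested on simulated data.

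Libraries of a group are from separate mice, and no 2 libraries held the same counts (over genes, chi-square was at least 12.2 per degree of freedom). The eye pairs follow the design, in which the control is the other eye of the same mouse. Across 14815 genes of at least 1 CPM, deviations from the group means correlated at 0.34 for FDM 1 and Control 1. They correlated at 0.13 for FDM 3 and Control 3, and at 0.22 for FDM 3 and Control 2, the pairing of the sample labels. With 2 FDM libraries, the deviations of FDM 3 are those of FDM 1 with the sign reversed. FDM 1 thus stood at -0.13 with Control 3 and at -0.22 with Control 2. The correlations of FDM 3 are not separate from these, so the correlations cannot decide between the pairings. Coordinates and exon lengths are from GENCODE M21 on GRCm38, in which 33585 identifiers were found, and start sites from RefSeq on GRCm38.p6. The members and the lists were chosen with earlier results of these data known. Named are all members, the called and the most abundant gene of each pathway list, and the 5 genes nearest to Bdnf and Vgf. Ret, Gfra1, Sort1, Egr1, Fos, Junb, Nr4a3, Homer1 and Crem were added after their values were seen. Some genes of the lists are not reported here by name.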

Additional observations from a re-analysis of the deposited data

How the results depend on the processing

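Over all genes, 281 were called at the unadjusted threshold, against 172 with DESeq2, 498 with no count filter and 182 with a filter of 1 CPM in at least 2 libraries. With the replicate block the count was 1261 by the count-table numbers and 439 by the label numbers, and it ran from 146 to 944 with each library left out. Of the members, 1 was called, against 2 with DESeq2, with no count filter and with the block by the count-table numbers. The count was 0 to 1 with each control library left out. The member called was not always Vgf. Among the fits that kept both FDM libraries, it was Bdnf instead with upper-quartile factors, with the block by the label numbers and without Control 1. Bdnf kept its direction under all 15 alternatives and passed the threshold under 7. Its log2 fold change was then -0.56 with DESeq2, -0.55 with upper-quartile factors, -0.57 with no count filter, -0.37 with the block by the count-table numbers and -0.51 with that by the label numbers, and it ran from -0.82 to -0.36 with each library left out. Vgf also kept its direction and missed the threshold under 6 of 15, at -0.36 with upper-quartile factors, at -0.27 with the block by the label numbers, and within a range of -0.49 to -0.28 with each library left out. Some signs changed. Ngfr went to -0.013 with the authors' factors, -0.0093 in limma on normalized counts with a pseudocount of 1 and with one of 0.1, and -0.065 with the block by the count-table numbers. Ntrk2 went to 0.0079 with that block. With each library left out, Ngfr ran from -0.056 to 0.093, Ntrk2 from -0.26 to 0.014, Ntrk3 from -0.11 to 0.00029, Gdnf from -0.52 to 0.13, Cntf from -0.23 to 0.21 and Ntf3 from -1.85 to -0.042. The cause of these changes was not tested. Where 1 FDM library was left, it was assumed to vary like the controls. Gdnf and Ntf3 have no value under the filter of 1 CPM, and their depth of 3 to 21 counts limits what can be seen.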
